A study of Mus musculus with 8 samples.

Results

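The cytosolic ribosomal protein genes encode the protein part of the ribosome that translates nuclear messages, and their transcripts were compared between Ercc1 delta/+ and wild type mouse ventral midbrain. Members were chosen by symbol: every gene named Rpl or Rps followed by a digit, together with Rplp0, Rplp1, Rplp2 and Rpsa, and without the ribosomal S6 kinases, Rps19bp1 and pseudogenes. By that rule 84 of the 15285 genes in the mapped table were members, 51 named for the large and 33 for the small subunit. Membership rests on the name alone, also for Rps23rg1, whose counts closely followed those of Rps23. All 84 were among the 15000 genes tested. A further 3 symbols of the reference table, Rpl10l, Rpl37rt and Rpl3l, were not analysed here, and Rps27rt was merged with Rps27 because their counts were identical.

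Poly(A) RNA of the ventral mesencephalic area was sequenced in 4 Ercc1 delta/+ samples, which carry a mutant delta allele of this DNA repair gene beside a wild type allele, and in 4 wild type samples. The labels place the mutants on a mixed FVB:C57BL/6J (50:50) background and do not give ages. Whether the samples come from different animals is not stated, and p-values therefore describe only the spread among these libraries, which may be technical. The libraries held 18271978 to 31204701 counts, and 3 counts corresponded to 0.0915 to 0.170 CPM (a gene's counts scaled to library size). Ercc1 itself averaged 11.5 ± 1.17 CPM in mutant and 14.6 ± 0.724 CPM in wild type libraries (SD, n = 4 per group). Its log2 fold change was -0.34 (SE 0.10, adjusted p = 0.114, edgeR quasi-likelihood test), and the groups did not overlap. All 12 dopaminergic markers were present, with summed levels of 246.1 to 484.8 CPM in the mutants and 349.3 to 525.5 CPM in wild type.

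Each ribosome is assembled in the nucleolus and cytoplasm from ribosomal RNA and about equal amounts of every ribosomal protein, so cells make these proteins in step. In vertebrates their transcripts are short and abundant and begin with an unbroken run of pyrimidines, the terminal oligopyrimidine tract, through which growth signalling controls their translation. Because the messages are short and abundant, they have been copied back into the genome many times, and most members have intronless processed copies whose sequence is close to that of the parent gene. Reads of such a parent can align to several places, which makes its count depend on how the counting treated them.

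The starts of 8 members are shown so that the pyrimidine tract can be compared between the ends of the range of differences reported below. They are the 4 lowest and 4 highest fold changes among members with a single RefSeq promoter entry, with Rpl17 and Rps14 left out of the choice. Each sequence runs from 60 bases before the annotated start through the first 20 transcribed bases, taken from RefSeq on build GRCm38.p6, and capitals mark the longest unbroken run of C or T on the gene strand that reaches within 10 bases of the start. The coordinates in order are chr2:26910747-26910826 (plus strand), chr10:23787190-23787269 (minus), chr16:10170168-10170247 (plus), chr3:28805448-28805527 (plus), chr7:4792905-4792984 (plus), chr5:115559407-115559486 (plus), chr9:64173327-64173406 (plus) and chr17:46782637-46782716 (minus).
Rpl7a: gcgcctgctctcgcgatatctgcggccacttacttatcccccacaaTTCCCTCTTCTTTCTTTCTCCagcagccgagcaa
Rps12: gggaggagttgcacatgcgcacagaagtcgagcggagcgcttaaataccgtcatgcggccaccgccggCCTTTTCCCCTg
Rpl39l: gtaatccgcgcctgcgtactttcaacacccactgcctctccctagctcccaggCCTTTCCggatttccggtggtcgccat
Rpl22l1: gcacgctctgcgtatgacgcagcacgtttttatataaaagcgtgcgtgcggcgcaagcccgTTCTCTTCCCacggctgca
Rpl28: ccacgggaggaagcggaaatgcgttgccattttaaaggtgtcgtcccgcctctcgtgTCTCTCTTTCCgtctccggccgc
Rplp0: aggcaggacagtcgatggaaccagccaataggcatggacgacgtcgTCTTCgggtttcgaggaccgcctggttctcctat
Rpl4: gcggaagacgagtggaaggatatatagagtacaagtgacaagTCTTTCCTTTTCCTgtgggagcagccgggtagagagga
Rpl7l1: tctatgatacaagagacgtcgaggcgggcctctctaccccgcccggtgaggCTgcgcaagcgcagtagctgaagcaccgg
The first 4 of these genes had log2 fold changes between -1.47 and -0.93, and the last 4 between -0.22 and -0.12. The runs were 21, 11, 7 and 10 bases long in the first 4, and 11, 5, 14 and 2 bases in the last 4, so a long run was seen at both ends of the range. Rpl7l1, the assembly-factor paralog of Rpl7, had the shortest run of the 8.

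RefSeq promoter entries of 300 bases (250 before to 50 after the start) were matched for 64 members, with 75 entries in all, and 20 members had none. A run of at least 8 pyrimidines reaching within 10 bases of the start was present in 32 of the 75 member entries (42.7%) and in 4605 of all 32851. The motif CCGGAAG, which Ets family factors bind, was found on either strand in 36.0% of member entries and 8.86% of all. The YY1 core ATGGCG was found in 30.7% against 8.93%, and the Sp1 motif GGGCGG in 45 of the 75 against 35.7% of all. CTTCC within 10 bases of the start, searched on both strands and able to overlap the pyrimidine run and CCGGAAG, stood at 22.7% against 9.14%. CTTTTC (25.3% against 21.8%) and TATAAA (10.7% against 13.6%) were at similar shares in both. Among members with a single entry, the 26 with a run of at least 8 had a median of -0.45 (log2 fold change) and the 29 with a shorter run -0.43.

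Ribosomal protein transcripts were lower in Ercc1 delta/+ midbrain across both subunits, although only Rpl17 and Rpl7a passed the test across all genes. All 84 members had a log2 fold change below 0, where 50.5% of all genes tested did, and the members' median was -0.46, or 72.8% of the wild type level, beside -0.0027 for all genes. In a fit that also corrected for transcript length and GC content, described below, the median was -0.24 and 6 members were positive. Without that correction values ran from -1.85 for Rpl17 to -0.12 for Rpl7l1. In bulk tissue, fewer cells of a type and less RNA per cell cannot be told apart.

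With the edgeR quasi-likelihood test, adjusted over all 15000 genes by the Benjamini-Hochberg method, 2 of 84 members fell at an adjusted p under 0.05 and 0 rose. By that rule 0.0333% of all genes fell and 0.0467% changed in either direction. At an adjusted p under 0.1 the count was 43 of 84 members against 2.21% of all genes. At an unadjusted p under 0.05, 77 members were lower, where 9.57% of all genes were, and 0 were higher, where 9.03% were. The 4 mutant values all lay below the 4 wild type values for 66 members, against 6.86% of all genes, and the reverse held for 0 members, against 5.18%. DESeq2 called 59 members lower at an adjusted p under 0.05 (3.57% of all genes) and 0 higher (3.36%). The exact test of edgeR called 50 lower (2.05%) and 0 higher (1.61%). In the authors' deposited table, 40 of the 84 members had a negative log2 fold change with an adjusted p under 0.05 (0.843% of its rows), and all 84 were negative. Without mutant replicate 2 the quasi-likelihood test called 46 members lower, beside 246 genes lower and 74 higher of all 15090 tested. Without mutant replicate 4 it called 0 members and 0 genes. It called 1 member, the only gene called lower, without mutant replicate 3 or without any 1 of the wild type samples.

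**Figure D1:**
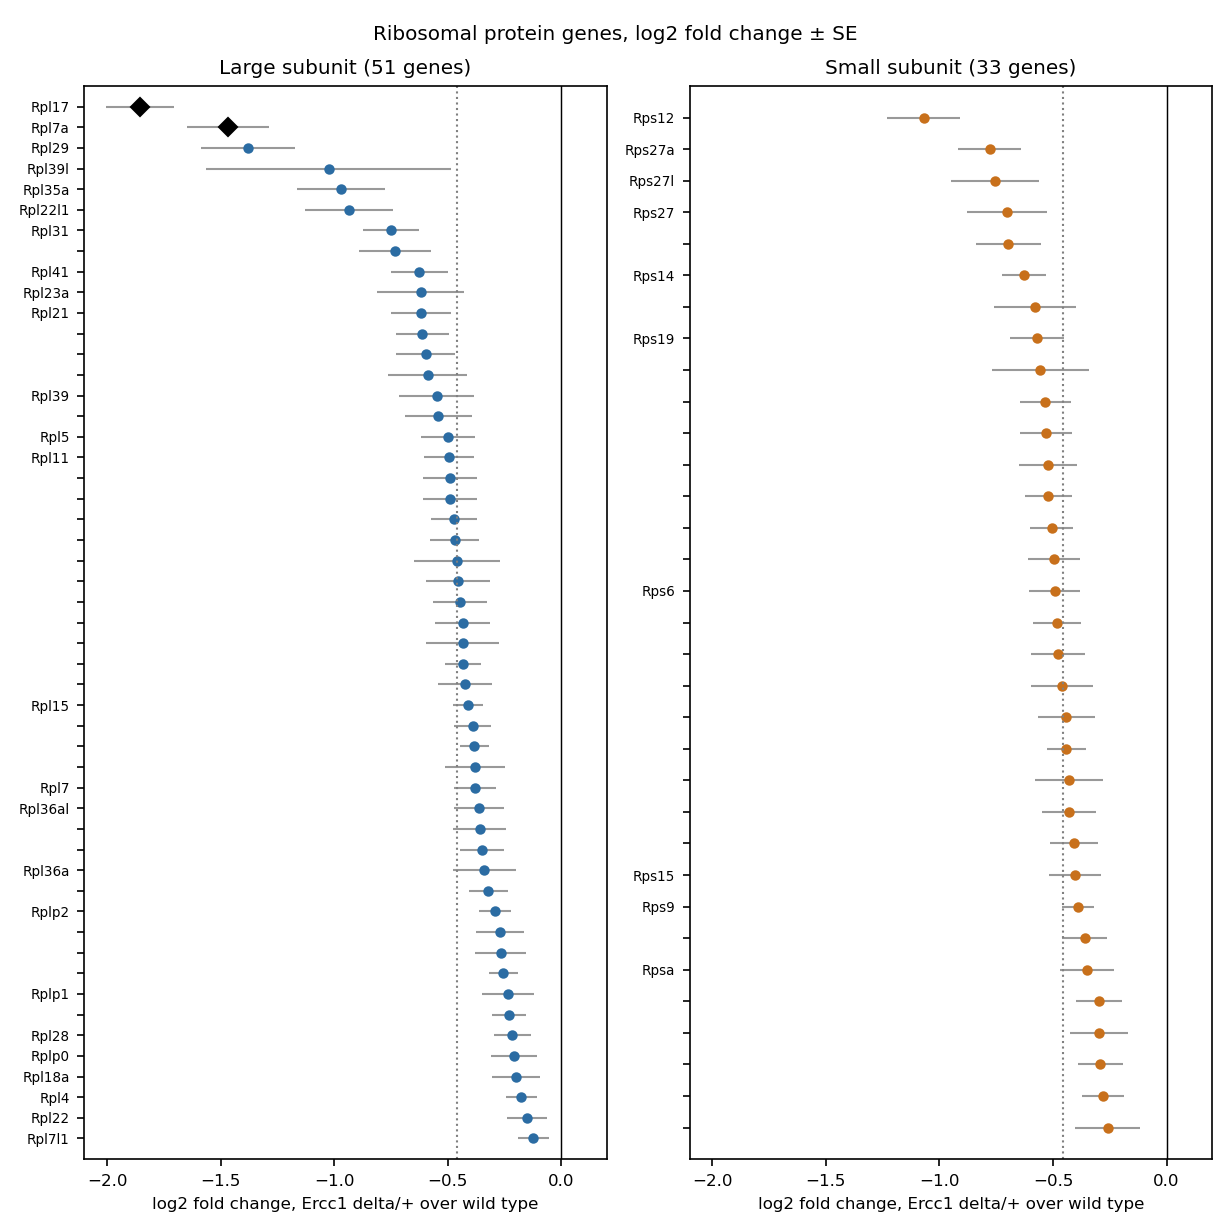
Log2 fold change (mutant over wild type) of each ribosomal protein gene, ordered by size, with bars of 1 SE and a panel for each subunit. Labels mark only the 35 named members, picked in part by fold change and p as described under processing. Black diamonds passed the adjusted threshold, and the dotted line is the members' median, -0.46. All 84 points lie below 0, and Rpl17, Rpl7a, Rpl29 and Rps12 stand at the low end of the range.

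The difference was uneven across the mutant samples. The members together took 0.573, 0.811, 0.743 and 0.713% of all counts in mutant samples 1 to 4, and 0.933, 0.993, 0.945 and 1.01% in wild type samples 1 to 4. The groups did not overlap in this share, and mutant sample 2 came closest to wild type. Expressed as the median deviation of the members from their own mean over the 8 libraries (log2 CPM), the mutants stood at -0.58, 0.026, -0.17 and -0.22, and the wild types at 0.19, 0.31, 0.20 and 0.25. Mutant sample 1 held the lowest of the 8 values for 78 members. Mutant sample 2 held the highest mutant value for 73 members, and 37 of its 84 values were below the gene's mean. Wild type samples 2 and 4 held the highest value of all for 50 and 26 members. Without mutant sample 1 the members' median log2 fold change was -0.36, and without mutant sample 2 it was -0.56.

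**Figure D2:**
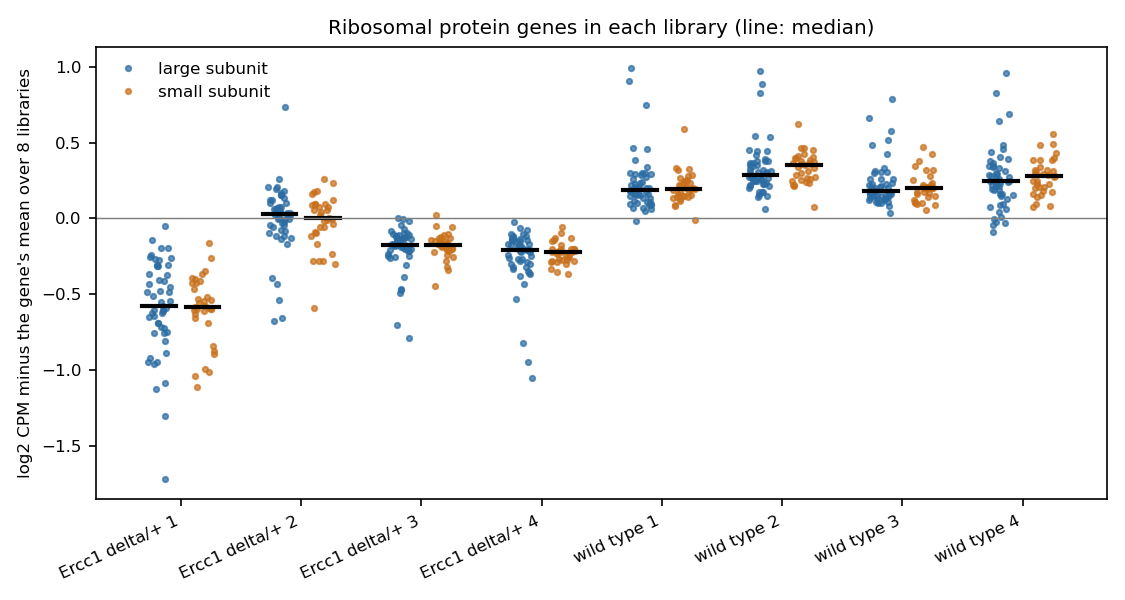
Deviation of each ribosomal protein gene from its own mean over the 8 libraries (log2 CPM), for every library and subunit, with a line at each median. The subunit medians of the mutants run from -0.58 to 0.029 and those of the wild types from 0.18 to 0.36.

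Other transcripts varied beside these. Choroid plexus markers summed to 393.9, 495.8, 1195 and 102.6 CPM in mutant samples 1 to 4 and to 103.7 to 186.4 CPM in wild type. The 3 red blood cell markers in the table (of 5 listed) summed to 151.3, 234.6, 176.1 and 200.4 CPM in the mutants and to 237 to 320.3 CPM in wild type. These sums did not overlap, but only 1 of the 3 markers did not overlap by itself, and 0 passed the adjusted threshold. Among the mutants the red blood cell sum was lowest in sample 1 and highest in sample 2, as was the members' share of counts. The oligodendrocyte sum had the same extremes, at 6513, 9913, 8117 and 7487 CPM in mutant samples 1 to 4. Among the mutants, microglia, astrocyte, endothelium and cortical neuron sums were instead highest in sample 1, and the dopaminergic sum was lowest in sample 3. Sums for microglia, astrocytes, oligodendrocytes, endothelium and cortical neurons overlapped between the groups. The part of these cell types in the members' difference was not tested.

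Fold changes also moved with transcript length across all genes. Among genes that are not members, the 1466 shortest (264 to 1284 bases) had a median of -0.20, and 30.2% of them were lower at an unadjusted p under 0.05. In the 1465 longest genes the median was 0.14, and 0.887% were lower. The members are short, their matched transcripts having a median length of 795 bases, where that of all genes tested was 3003. When the fit carried a length and GC offset, the members' median was -0.24 and 78 of 84 were negative. In that fit 55 were lower at an unadjusted p under 0.05, and Rpl17 alone passed the adjusted threshold. Unlike the trend above, the offset was estimated with the members included, so it can take up part of their own difference. How large that part is was not tested. The 6 positive members, named after their values were seen, were Rps29 (0.12), Rps28 (0.079), Rpl30 (0.077), Rplp1 (0.061), Rpl36a (0.053) and Rps26 (0.021). Members were also grouped by another length, that of the shortest transcript with the full coding sequence. Members under 600 bases (n = 30) had a median of -0.52, and those of 600 to under 1000 bases (n = 35) had -0.43. Those of at least 1000 bases (n = 17) had -0.39. For some members this length differed from the matched length in the offset, as for Rps15a with 640 against 5179 bases.

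Both subunits were lower by similar amounts. The median was -0.43 over the 51 large subunit genes and -0.48 over the 33 small subunit genes, 0.05 apart on the log2 scale. Of the large subunit genes 2 passed the adjusted threshold, 45 were lower at an unadjusted p under 0.05 and 37 did not overlap, where 9.57% and 6.86% of all genes met the latter criteria. In the small subunit none passed by the quasi-likelihood test, 32 were lower at an unadjusted p under 0.05, 29 did not overlap, and DESeq2 called 25, against 3.57% of all genes. Within each library, the large subunit median deviation minus the small one was 0.0045, 0.023, 0.0040 and 0.015 in the mutants and -0.0061, -0.068, -0.021 and -0.033 in wild type. These gaps did not overlap between the groups, and all of them were small beside the members' median fold change. The subunit difference was 0.027 without mutant sample 1 and 0.023 without wild type sample 3.

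Rpl17, a large subunit protein at the exit of the peptide tunnel, showed the most negative fold change of the members. Its level was 3.30, 5.21, 5.03 and 3.93 CPM in mutant samples 1 to 4 and 16.5, 16.3, 14.3 and 16.1 CPM in wild type samples 1 to 4. Every mutant sample was thus below every wild type sample by a wide margin, the means being 4.37 ± 0.910 and 15.8 ± 1.03 CPM (SD over 4 libraries). The log2 fold change was -1.85 (SE 0.15, adjusted p = 0.00590, edgeR quasi-likelihood test), or 27.6% of wild type. The call was lost without mutant sample 4 (adjusted p = 0.0592). In the authors' deposited table its log2 fold change was -1.86.

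Rpl7a, a large subunit protein on the solvent face, was the other member to pass. It was counted at 1.161, 1.416, 1.303 and 1.692 CPM in the mutants and 4.40, 4.16, 3.70 and 3.20 CPM in wild type. The groups did not overlap, and the means were 1.39 ± 0.225 and 3.87 ± 0.530 CPM (SD, n = 4 each). Its log2 fold change was -1.47 (SE 0.18, adjusted p = 0.0389, edgeR quasi-likelihood test). Both of these genes had low counts for ribosomal protein genes: Rpl7a totalled 520 counts and Rpl17 2037 over the 8 libraries. The Rpl7a call was kept without mutant sample 2 and lost without each of the other 7 samples, and its highest adjusted p over all settings was 0.162.

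Rpl29 and Rps12 came next without passing. Rpl29, a small basic large subunit protein, measured 0.697, 1.08, 1.01 and 0.778 CPM in the mutants and 2.47, 2.73, 2.09 and 2.04 CPM in wild type. Rps12, on the beak of the small subunit, measured 7.20, 12.9, 11.5 and 12.1 CPM against 23.5, 24.1, 21.0 and 23.0 CPM. Neither gene overlapped between the groups, and mutant sample 1 was the lowest for both. Their log2 fold changes were -1.38 (SE 0.21) for Rpl29 and -1.07 (SE 0.16) for Rps12, each with adjusted p = 0.0504 by edgeR's quasi-likelihood test.

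Several genes with higher mean levels than Rpl29 and Rps12 had smaller fold changes. Rps14, a small subunit protein at the platform, stood at 51.6, 64.1, 69.4 and 66.2 CPM in the mutants and 89.1, 100.3, 97.2 and 101.9 CPM in wild type (-0.63 on the log2 scale, SE 0.10, adjusted p = 0.0504 by edgeR). Rpl15 stood at 78.7, 85.8, 77.8 and 80.4 CPM against 103.4, 118.4, 103.9 and 103.4 CPM (-0.41, SE 0.07). Rps9 stood at 105.4, 125.5, 122.9 and 122.6 CPM against 150.03, 162.4, 156.7 and 154.6 CPM (-0.39, SE 0.07). None of these 3 overlapped between the groups. Rpl31 (-0.75), Rps27a, which is made as a fusion with ubiquitin (-0.78), Rpl35a (-0.97) and Rpl41, the shortest ribosomal protein (-0.62), did not overlap either, with SE from 0.12 to 0.20 and adjusted p from 0.0504 to 0.0646 by edgeR.

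**Figure D3:**
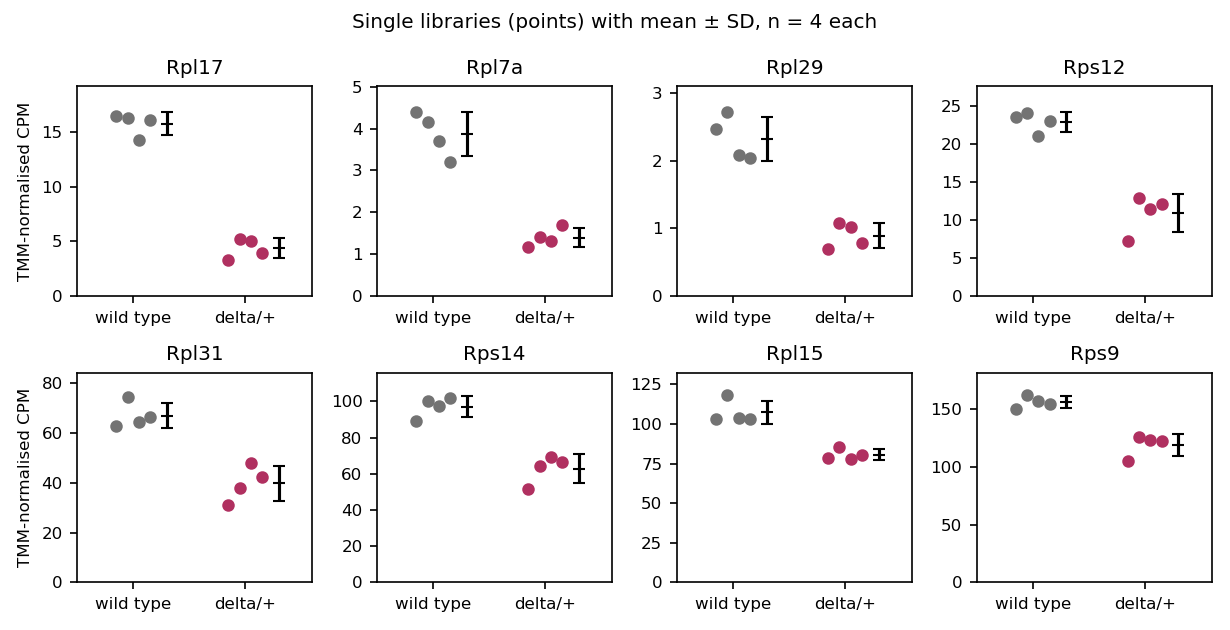
CPM of selected ribosomal protein genes in each mutant and wild type library, each panel starting at 0 on a linear axis, with the group mean and SD. In all 8 panels shown the 4 mutant points lie below the 4 wild type points, and mutant sample 1, the leftmost mutant point, is the lowest in most.

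Members of the acidic stalk and Rpl4 had fold changes nearer to 0 than the members' median. The stalk of the large subunit, which recruits translation factors, is built from Rplp0, Rplp1 and Rplp2. Rplp0 was counted at 128.0, 164.1, 126.0 and 129.0 CPM in the mutants and 157.1, 173.9, 156.8 and 143.9 CPM in wild type, so that mutant sample 2 overlapped wild type. The log2 fold changes were -0.21 (SE 0.10) for Rplp0, -0.23 (SE 0.12) for Rplp1 and -0.29 (SE 0.07) for Rplp2, with adjusted p of 0.3002, 0.312 and 0.0912 by edgeR. Only Rplp2 of the 3 did not overlap, and Rplp1 was at 0.061 with the length and GC offset. Rpl4, at 347.4 to 392.5 CPM in the mutants and 391.7 to 440.4 CPM in wild type, had -0.18 (SE 0.07, adjusted p = 0.218 by edgeR). Rpsa, a small subunit protein that also occurs as a laminin receptor, lay between these and the members' median at -0.35 (SE 0.12, adjusted p = 0.166), with mutant sample 2 inside the wild type range.

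In wild type the level per kilobase of transcript ranged from 516.9 CPM per kb for Rplp1, 412.2 for Rps15 and 335.0 for Rpl41 down to 4.23 for Rpl7a, 4.00 for Rpl29 and 0.974 for Rpl39l. Rpl21 (4.81) was next above Rpl7a. These levels are set beside shared sequence in the plot of windows and fold changes. The 3 highest had log2 fold changes of -0.23, -0.40 and -0.62.

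Processed copies were measured in 2 ways: by the number of pseudogenes named after the member in the reference table, and by cutting the member's transcript into windows of 50 bases and counting how many other genes of the GENCODE annotation hold each window exactly. The windows of 10 members occurred on average in at least 5 other genes, among them Rpl7a, Rps2, Rpl21, Rpl29, Rps12 and Rpl17. The median of these 10 was -0.62, and both genes that passed the test were among them. The 40 members at 1 to 5 other genes per window had a median of -0.44, and the 32 under 1 had -0.43. Windows of Rpl7a occurred in 13.3 other genes on average and in 120 genes in all, those of Rpl29 in 10.3 and 82, those of Rps12 in 7.52 and 23, and those of Rpl17 in 6.27 and 51.

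Fold changes varied among the most shared members. Rps2 (12.1 other genes per window) and Rpl21 (10.3) had log2 fold changes of -0.52 and -0.62, beside -1.47 for Rpl7a. Rpl31, with 24 named pseudogenes, as many as Rps12, had -0.75 beside -1.07 for Rps12. The 12 members with at least 10 named pseudogenes had a median of -0.59, and the 21 with none -0.43. Across the 82 members with windows, Spearman's rho between fold change and other genes per window was -0.264, and -0.092 without the 10 most shared members. Between fold change and wild type CPM rho was 0.378 over all 84 members. Between wild type level per kilobase and other genes per window it was -0.087 over the 82. These members share libraries and length, and no p is given. Some genes named alike had nearly or fully the same counts: Rps23rg1 totalled 23451 and Rps23 24688, and Rps27rt was identical to Rps27. The treatment of reads with several alignments is not given in the sources used here, and its part in the Rpl17 and Rpl7a values was not tested.

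**Figure D4:**
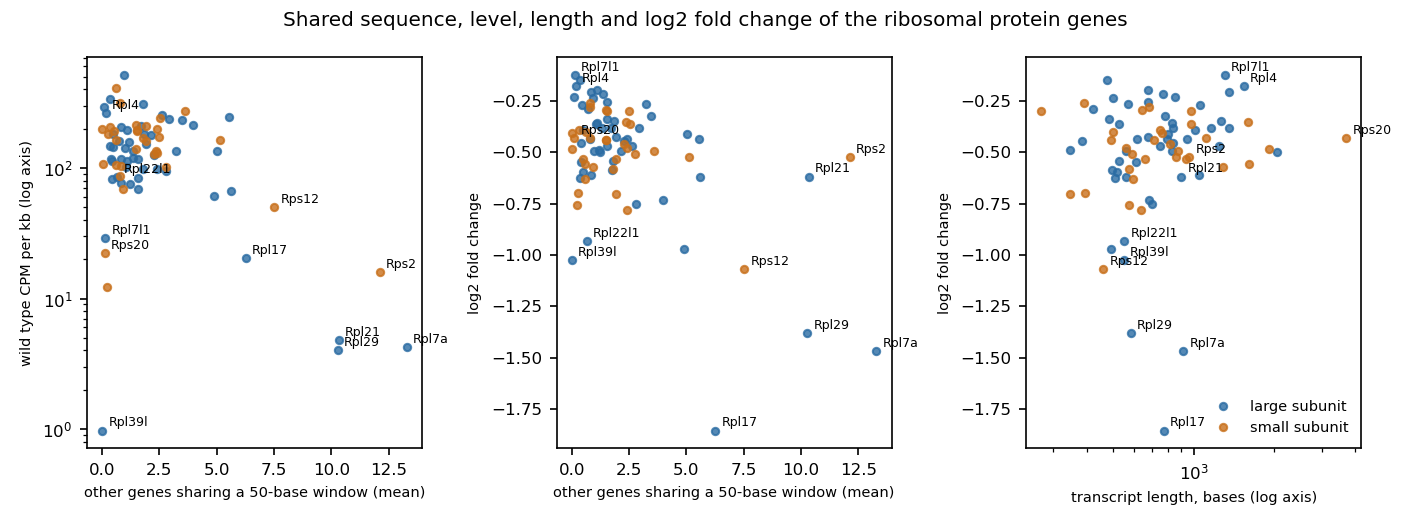
Left and middle, mean number of other genes sharing a 50-base window with each member against the wild type level per kilobase (log axis) and against the log2 fold change; right, fold change against transcript length (log axis). Rpl7a, Rpl29 and Rpl21, among the most shared members, have low levels per kilobase, as does Rpl39l with no shared window, and fold changes below -1 belong to Rpl17, Rpl7a, Rpl29, Rps12 and Rpl39l.

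Paralogs can stand in for their namesakes in some tissues, and 7 pairs were compared as the paralog's CPM in percent of its namesake's, with an exact two-sided permutation test and Benjamini-Hochberg adjustment over the 7 pairs. Rpl22l1 was at 15.7, 23.0, 33.5 and 26.3 CPM in the mutants and 46.0, 43.5, 44.9 and 54.0 CPM in wild type, without overlap (log2 fold change -0.93, SE 0.19, adjusted p = 0.0664 by edgeR). Its namesake Rpl22 had -0.15 (SE 0.09), with overlap. The ratio of the pair was 39.6 ± 13.2% in the mutants and 68.5 ± 11.6% in wild type libraries (SD over 4 libraries). On the log2 scale the pair differed by -0.83 (exact permutation p = 0.0571, adjusted 0.133). Mutant sample 3, at 57.3%, lay within the wild type range of 57.0 to 83.7%.

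The Rpl7l1 to Rpl7 ratio went the other way. It was 29.7, 24.0, 24.6 and 26.1% in the mutants and 23.6, 20.4, 22.5 and 20.4% in wild type, and every mutant value was above every wild type value. The difference was 0.26 (log2) with an exact permutation p of 0.0286, the smallest that 4 against 4 can give, and an adjusted p of 0.133. The offset used the length of the matched transcript, which was 552 bases for Rpl22l1, 2051 for Rpl22, 2606 for Rpl7l1 and 1163 for Rpl7. By the shortest transcript with the full coding sequence, Rpl22l1 (552 bases) and Rpl22 (474) were of similar length. By that measure Rpl7l1 (1310 bases) was still longer than Rpl7 (838). With the length and GC offset Rpl22l1 had -0.48 (adjusted p = 0.388 by edgeR) and Rpl22 -0.09, and Rpl7l1 had -0.10 and Rpl7 -0.16, so the gap within each pair was smaller. The Rps27l to Rps27 ratio was 9.48 ± 1.24% against 9.83 ± 1.03% (exact p = 0.800, n = 4 each), and Rpl36al to Rpl36a 133 ± 7.03% against 134 ± 10.6% (exact p = 0.857). Rps23rg1 to Rps23 (96.5 against 94.0%, p = 0.0571), Rpl32l to Rpl32 (56.2 against 52.0%, p = 0.314) and Rpl39l to Rpl39 (p = 0.286) completed the exact permutation tests, and none of the 7 passed after adjustment. Rps23rg1 stood at 94.4 to 97.9% of Rps23 in the mutants and at 92.8 to 95.4% in wild type. Whether both genes were counted from the same reads was not tested, so their ratio may not compare separate transcripts. Rpl39l ran from 0.046 to 0.671 CPM, at or below the level of 3 counts in mutant samples 1 and 4, and its fold change had an SE of 0.54.

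**Figure D5:**
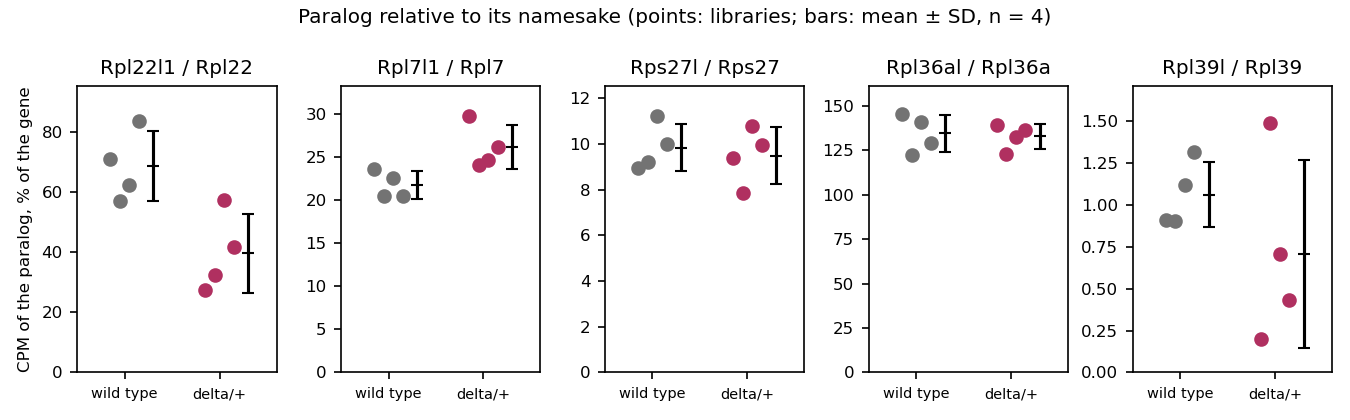
Level of 5 paralogs in percent of the gene each is named after, for every mutant and wild type library, with mean and SD. Rpl22l1 to Rpl22 is lower in 3 of 4 mutants than in every wild type library, and Rpl7l1 to Rpl7 is higher in all 4.

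Rpl5 and Rpl11 bind the small ribosomal RNA of the large subunit and, when unassembled, the p53 ligase Mdm2. Rpl5 stood at 85.6, 133.6, 111.0 and 102.6 CPM in the mutants and 149.1, 157.7, 148.6 and 156.0 CPM in wild type, and Rpl11 at 82.8, 119.8, 116.0 and 103.7 against 140.8, 152.2, 144.1 and 158.1 CPM. Both groups were separate for both genes, with log2 fold changes of -0.50 (SE 0.12, adjusted p = 0.0889 by edgeR) and -0.50 (SE 0.11, adjusted p = 0.0786). Mdm2 had a log2 fold change of 0.01 (adjusted p = 0.963 by edgeR) and Trp53, the gene of p53, 0.04 (adjusted p = 0.827). Rps6, the substrate of the S6 kinases, had -0.49 (SE 0.11, adjusted p = 0.0818).

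Genes whose loss of an allele causes Diamond-Blackfan anaemia, a red cell aplasia, form a list of 19 members with a median of -0.44. None passed the quasi-likelihood test, 18 were lower at an unadjusted p under 0.05, DESeq2 called 13, and 17 did not overlap, beside 9.57%, 3.57% and 6.86% of all genes. With the length and GC offset 3 of the 19 were positive, namely Rps26, Rps28 and Rps29. Rps19, the gene most often affected in that disease, stood at 44.7, 64.3, 66.8 and 62.7 CPM in the mutants and 86.0, 95.2, 83.3 and 90.1 CPM in wild type (-0.57, SE 0.12, adjusted p = 0.0664 by edgeR). The list's median was close to that of all members.

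Genes that work with the ribosome but fall outside the name rule were read from lists of the same fit, and none of their genes passed at an adjusted p under 0.05 by the quasi-likelihood test. Of 7 tested ribosome partners, all 7 were negative with a median of -0.27. At an unadjusted p under 0.05, 5 of them were lower (9.57% of all genes), DESeq2 called 3 (3.57%), and 3 did not overlap (6.86%). Fau, the ubiquitin-like fusion that carries a small subunit protein, had -0.47 (SE 0.08, adjusted p = 0.0523 by edgeR). Naca and Btf3, the subunits of the complex that meets nascent chains, had -0.46 and -0.36, and Rack1, a scaffold protein of the small subunit, had -0.25.

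The other parts of the translation machinery lay nearer to 0. Their values, like those of the ribosome partners, are given without the length and GC offset, and fold changes moved with length over all genes. The part of transcript length in this contrast with the short members was not tested. For comparison, 9.57% of all genes were lower and 9.03% higher at an unadjusted p under 0.05, and DESeq2 called 3.57% lower and 3.36% higher. Of 13 elongation and termination genes 7 were negative, with a median of -0.0048, 3 lower and 0 higher at an unadjusted p under 0.05, and 2 called lower by DESeq2. Eef1a1, Eef1b2 and Eef1g, subunits of the factors that deliver aminoacyl-tRNA, had -0.28, -0.35 and -0.19, and the poly(A) binding protein gene Pabpc1 had 0.13. Of 35 ribosome assembly genes 20 were negative (median -0.06), with 5 lower and 2 higher at an unadjusted p under 0.05, and 2 lower and 1 higher by DESeq2. Npm1 and Riok2 had -0.30 and -0.30, and Heatr1 had 0.19.

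Of 13 RNA polymerase I genes 8 were negative (median -0.11). At an unadjusted p under 0.05, 2 were lower and 2 higher (9.57% and 9.03% of all genes), and DESeq2 called 1 in each direction (3.57% and 3.36%). Twistnb and Polr1d had -0.41 and -0.30, and Taf1c and Ubtf had 0.32 and 0.26. Of 15 genes that control translation of oligopyrimidine messages 4 were negative (median 0.06), with 3 lower and 4 higher at an unadjusted p under 0.05 and the same counts by DESeq2, beside the same shares of all genes. Eif4e, the cap-binding protein, and Rheb, the activator of mTOR, had -0.26 and -0.25, and Eif4ebp2, an inhibitor of Eif4e, had 0.31. In this list 3 genes were lower and 5 higher without overlap, beside 6.86% and 5.18% of all genes. The 3 lower were Eif4e, Rheb and Cnbp (-0.25). The 5 higher were Eif4ebp2, Mtor (0.20), Tsc2 (0.18), Rptor (0.17) and Larp1 (0.14).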

How the data were processed

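Gene counts of 8 poly(A) RNA libraries, 4 Ercc1 delta/+ and 4 wild type, were analysed from a table the authors deposited, with 19931 transcript accessions as rows. Per the labels' protocols, barcoded libraries shared a sequencing lane. Per the submitters' processing notes, TopHat 1.3.1, edgeR and mm9 were used; for the counting tool, its strand setting and reads with several alignments, nothing is given in the sources used here. The deposited log2 fold changes and p-values are the authors' own and are quoted only as theirs.

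Accessions were matched to symbols for 19600 rows, and 331 had no match. The row of highest total was kept for each of the 2892 genes with several rows, 87 genes with counts identical to another gene's were merged, and 15285 genes remained. Of the members, 7 had several rows with nearly the same counts. Total counts were 18271978 to 31204701 per library. No pair of replicates agreed within sampling noise (lowest chi-square per degree of freedom 11.8).

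Counts were tested with edgeR 4.0.16 (R 4.3.3) by its quasi-likelihood test, with TMM scaling, filterByExpr (15000 genes kept), two-sided p and Benjamini-Hochberg adjustment over all genes, threshold 0.05. The SE is the log2 fold change divided by the square root of F. CPM are TMM-scaled, and log2 CPM has a prior count of 2. Lengths, GC content and windows of 50 bases came from GENCODE M21 and RefSeq tables, and 98.17% of genes had a length. Level per kilobase, the members' length groups and the plotted lengths use the shortest transcript with the full coding sequence. The offset and the length trend over genes that are not members use the matched transcript. The offset was estimated over genes with a mean log2 CPM above 2, members included. The log2 paralog ratios, on which the permutation tests were run, add 0.1 CPM to both genes, and the printed percentages add nothing. The scripts were tested on simulated data.

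Alternatives were other scalings, filters, DESeq2 1.42.0, limma-voom (limma 3.58.1), edgeR's exact test, a replicate block, a depth term, a length and GC offset, every row, and leaving out each library. Subsets of members (little sharing, long transcripts) were added after seeing the data. The members and all lists were chosen with earlier results of these data known. Named members were those past the threshold, the 8 lowest and 6 highest fold changes, the 4 smallest p per subunit, paralogs, the extremes of level and pseudogene number, and preset genes of known roles; from the other lists, up to 4 of smallest p. A few items are not reported here.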

Additional observations from a re-analysis of the deposited data

Results flagged for a closer look

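In 6 of 74 groups of 4 libraries checked, 1 library lay far from the other 3 by Dixon's criterion. Chance alone gives about 1 in 20 groups. Mutant sample 2 was the high one for Rpl4 (392.5 CPM), Rplp0 (164.1 CPM) and Rpsa (210.5 CPM), and mutant sample 1 the low one for Rps9 (105.4 CPM). Wild type sample 2 was the high one for Rpl15 (118.4 CPM) and Rps15 (228.0 CPM). The cause was not tested.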

How the results depend on the processing

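All genes passing the threshold numbered 7, and members 2. These counts became 33 and 5 with RLE scaling, 86 and 11 with upper-quartile scaling, 163 and 13 with a stricter filter (80 members tested), 1039 and 59 with DESeq2 (2 members without an adjusted p), 52 and 8 with limma-voom, 549 and 50 with edgeR's exact test, 1 and 1 with a depth term, 1 and 1 with the length and GC offset, and 4 and 1 with every row. With no filter they stayed at 7 and 2. Leaving out 1 library gave 0 to 320 genes and 0 to 46 members, the highest without mutant sample 2. The members' median, -0.46, was -0.24 with the offset and -0.56 to -0.36 without 1 library. The large minus small difference, 0.05, ranged from 0.023 to 0.063 without 1 library. With the offset 6 members reversed, Rps29 (0.12), Rps28 (0.079), Rpl30 (0.077), Rplp1 (0.061), Rpl36a (0.053) and Rps26 (0.021). In all other settings every member tested was negative. The cause of these shifts was not tested.

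Replicate numbers are shared by the groups, but nothing says that they pair samples: the correlations of same-numbered deviations were -0.275, 0.168, -0.122 and 0.262, and mutant sample 1 correlated best with wild type sample 2 (0.502). With a replicate block 0 genes and 0 members passed by edgeR's quasi-likelihood test, while 81 members were lower at an unadjusted p under 0.05, and Rpl17 and Rpl7a both had adjusted p = 0.119. Of the other values of named genes, 564 kept their side of the threshold, 80 came to pass it and 13 no longer passed, leaving out the members to which DESeq2 gave no adjusted p. Depth limits Rpl39l, Rpl29 and Rpl7a most, since their totals were 80, 318 and 520 counts.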
